A study of Mus musculus with 12 samples.

Results

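The transcription factors that drive epithelial to mesenchymal transition (EMT), together with the genes most often read as its outcome, were followed in mouse lung tumours with and without Dnmt3a. The 10 genes were Zeb1, Zeb2, Snai1, Snai2, Twist1, Twist2, Vim, Fn1, Esrp1 and Ovol1. They were listed by name, with earlier results of these data known. Every probe carrying one of these names, or an older name of the same gene, was taken, which gave 18 probes among 41174 on the array. Of these, 15 probes of 9 genes were bright enough to be tested, among 35562 probes of 19719 genes, and the probe of Twist1 was not.

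Each of the 12 2-colour arrays set RNA of a tumour labelled KO, homozygous for the conditional Dnmt3a knockout, against RNA of a tumour labelled WT at that locus. All animals were of mixed C57/129 background and carried the K-ras LSL-G12D allele, a mutant K-ras behind a removable stop. Cre recombinase was delivered to the airways by adenovirus at 6 to 12 weeks of age, so both groups had received the virus and carried activated K-ras, and the allele was changed in the lung cells that the virus reached. The tumours were flash-frozen whole, with no sorting of cells, and the labels give no stage or histology. By age and sex the arrays fall into 4 sets, named pairs A, B, C and D below. The unit of the ages is not given. Pair A (4 arrays, slide 1) had a KO age of 47.7 and a WT age of 42.6. Pair B (4 arrays, slide 2) had 27 and 41.3. Pair C (2 arrays, slide 3) had 27 and 47.6, and its WT RNA was the only RNA labelled female. Pair D (2 arrays, slide 3) had 29.1 and 37.3. KO animals were older than WT animals in pair A and younger in pairs B to D. It is not stated whether a pair's arrays hold RNA of different animals, and the p-values may then measure technical spread in part.

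Dnmt3a itself was lower in KO RNA on 12 of 12 arrays with 2 of its 3 probes and on 11 of 12 with the other, by 0.21 to 0.55 on the log2 scale, which checks the direction of the ratios. Slide 3 (pairs C and D) was the dimmer and more flawed slide: 59% to 72.2% of its probes were well above background in a dye, against 81.6% to 89.6% on slides 1 and 2, and 518 to 828 spots per array were marked as outliers, against 86 to 133. Defining markers of alveolar type 2 cells, the cells from which such tumours commonly arise, were well above background in both RNAs on all 12 arrays and had a summed normalized intensity of 365000 to 1180000 in KO RNA and 482000 to 1240000 in WT RNA. Of these 9 markers, 2 were lower in KO and none higher at an adjusted p under 0.05 by limma, beside 3.94% and 3.52% of all genes. On replicate 11, from pair D, club cell markers stood far higher in WT RNA (median ratio -5.55), and ciliated cell markers did so too (-2.73). Replicate 12, of the same pair, had the highest medians of these lists, at 1.85 and 0.65.

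In EMT, cells of an epithelium lose their junctions and polarity and take on a motile, matrix-producing state. Zeb, Snai and Twist proteins bind E-box sequences and repress epithelial genes such as Cdh1. Vimentin, an intermediate filament, and fibronectin, a matrix glycoprotein, are common readouts, while the splicing regulator Esrp1 and the repressor Ovol1 hold the epithelial state. The same transcription factors, vimentin and fibronectin are also normally expressed by endothelial cells, fibroblasts, pericytes or macrophages, all of which a lung tumour contains. Dnmt3a places methyl groups on cytosines followed by guanine, and DNA methylation was not measured on these arrays.

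The sequence just upstream of the start is shown for 3 members because CG dinucleotides are the sites on which Dnmt3a acts. Of the 10 genes, 5 had an entry used here in the RefSeq promoter table of assembly GRCm38.p6, and the 250 bases before the start were read from it. Zeb1 was set aside by name before this step, so nothing is said of its promoter. Zeb2 encodes a repressor of the same family as Zeb1, Snai1 a short-lived repressor, and Vim the filament protein. For Zeb2 the window was that of the outermost of 4 listed starts, chr2:45117443-45117692 on the minus strand. The windows of Snai1 and Vim were chr2:167537945-167538194 and chr2:13574061-13574310, both on the plus strand. Capitals mark CG.
Zeb2: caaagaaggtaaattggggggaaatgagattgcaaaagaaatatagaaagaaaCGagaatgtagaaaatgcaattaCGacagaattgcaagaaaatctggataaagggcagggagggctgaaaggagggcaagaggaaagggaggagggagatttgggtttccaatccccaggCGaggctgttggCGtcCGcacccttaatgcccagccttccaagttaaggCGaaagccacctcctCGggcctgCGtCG
Snai1: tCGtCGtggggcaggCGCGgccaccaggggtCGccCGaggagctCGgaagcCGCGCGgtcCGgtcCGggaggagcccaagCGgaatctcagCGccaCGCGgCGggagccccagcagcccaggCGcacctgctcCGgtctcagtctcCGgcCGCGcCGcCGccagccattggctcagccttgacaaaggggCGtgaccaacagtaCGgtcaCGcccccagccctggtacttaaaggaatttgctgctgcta
Vim: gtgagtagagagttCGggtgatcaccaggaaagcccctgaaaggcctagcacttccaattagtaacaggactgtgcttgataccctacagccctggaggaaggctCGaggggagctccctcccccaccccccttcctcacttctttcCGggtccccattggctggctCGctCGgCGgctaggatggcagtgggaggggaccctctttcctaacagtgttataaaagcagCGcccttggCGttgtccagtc

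The Snai1 window held 27 CG, more than 91.4% of the 32851 promoters in the table, whose median was 6. Zeb2 held 9 at its outermost start and 6, 6 and 14 at its other listed starts, and Vim held 8. The windows of Twist2 and Twist1, which are not printed, held 23 and 18. The E-box read by Snai and Zeb proteins, CACCTG or CAGGTG on either strand, was found 1 time in the Snai1 window and in none of the other members' windows, while 17.2% of all promoters in the table held it. A match of letters is a description and shows neither binding nor methylation.

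Zeb1 was called lower in KO tumours (adjusted p under 0.05 by limma). Its protein is a zinc finger repressor of Cdh1 and of epithelial microRNA genes. It was read by 1 probe at chr18:5978371-5978430 of build mm7, the build named in the file headers, and it was well above background in both RNAs on all 12 arrays. Exon and UTR positions were not assigned, since no annotation of that build was used here. On the scale of normalized log2 intensity, the KO level had a lowest value of 8.27, a median of 8.49 and a highest of 8.83. In WT RNA the same values were 8.55, 9.01 and 9.72. The groups overlapped, with 7 of 12 KO values below the lowest WT value, and the mean was 8.50 ± 0.16 for KO and 9.00 ± 0.32 for WT (SD, n = 12 arrays).

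Within arrays the separation was complete: the log2 ratio of KO over WT was below 0 on 12 of 12, from -1.09 to -0.14 with a median of -0.53. Of all genes tested, 1.24% were below 0 on every array measured. The fitted ratio was -0.50 ± 0.068 (SE, 95% confidence interval -0.65 to -0.36), a level 1.42-fold lower in KO, with an adjusted p of 0.00229 by limma. The most negative array was replicate 11 and the least negative was replicate 1. The ratio was below 0 in both dye orientations, on 6 of 6 arrays each, with a mean of -0.33 where KO was in Cy5 and -0.67 where it was in Cy3. Pair C lay wholly in the first orientation and pair D in the second.

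The fall of Zeb1 was of like sign in every pair. The pair ratios were -0.41 ± 0.10 in A, -0.46 ± 0.10 in B, -0.50 ± 0.16 in C and -0.75 ± 0.16 in D (SE), and the F test over their differences gave an adjusted p of 0.73. Pair ratios here and below are adjusted for dye, and since pairs C and D each lie in 1 orientation, their values lean on the dye term of pairs A and B. Without that adjustment the mean ratio of Zeb1 was -0.37 in C and -0.88 in D. The call held with each array left out (adjusted p 0.0022 to 0.00652 by limma). With a whole pair left out it held closer to the threshold. The adjusted p was 0.02 without A, 0.0309 without B, 0.0106 without C and 0.00678 without D. With local backgrounds as deposited the ratio was -0.35 (adjusted p = 0.0372). With the mean of each pair taken as 1 value, which leaves 4 values, the ratio was -0.53 and the adjusted p 0.117. The call thus rests on treating arrays of a pair as almost independent samples (fitted correlation within a pair 0.078). In whole tumours, fewer cells that express Zeb1 and less Zeb1 RNA per cell cannot be told apart.

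**Figure D1:**
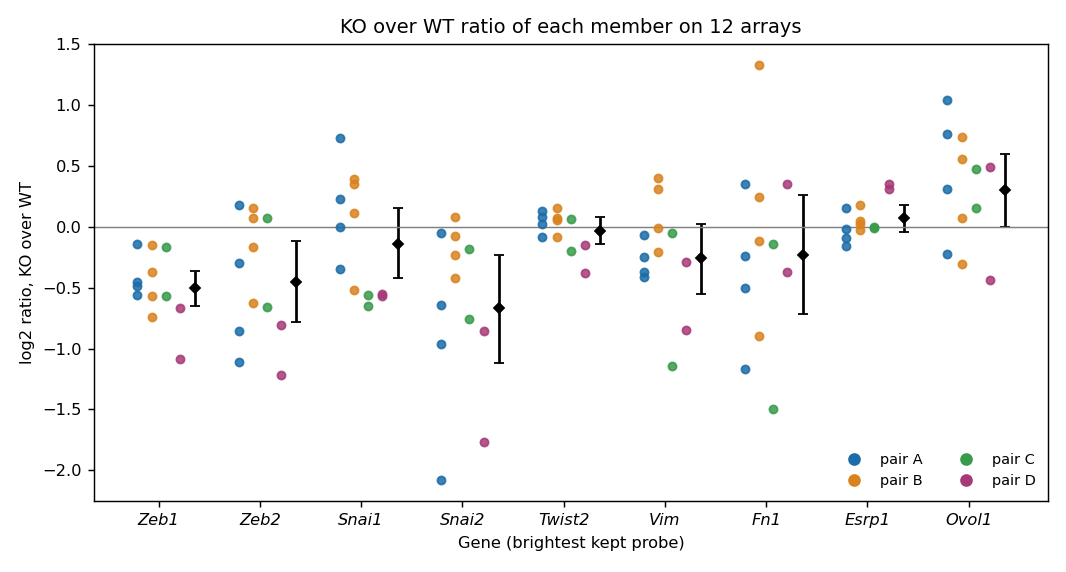
Log2 ratio of KO over WT (vertical axis) for the 9 members with a tested probe (horizontal axis). Coloured points are the 12 arrays by pair, and black diamonds with bars are the fitted ratio and its 95% confidence interval. The points of Zeb1 all lie below 0, from -1.09 to -0.14, while those of Fn1 run from -1.50 to 1.33.

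Zeb1 was also the only member called in either direction at an adjusted p under 0.05. That is 1 of 9 tested genes lower and 0 higher, where 3.94% of all genes were called lower, 3.52% higher and 7.46% either way by the same limma fit. At an unadjusted p under 0.05, 3 of 9 members were lower (Zeb1, Snai2 and Zeb2) and 0 were higher, beside 11.5% and 11.1% of all genes. The median ratio of the 9 genes was -0.23, against -0.0062 over all genes. A count over 9 genes says little of the members as a group.

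Zeb2, the other Zeb family repressor, was lower in KO RNA on 8 of 12 arrays but did not pass the test. Its brightest probe lies at chr2:44994565-44994624 (mm7). The KO level had a lowest value of 8.87, a median of 9.29 and a highest of 9.76, and the WT level 9.22, 9.67 and 10.58. The groups overlapped widely, and 4 of 12 KO values were below the lowest WT value. The ratio ran from -1.22 on replicate 12 to 0.18 on replicate 2, and the fitted value was -0.45 ± 0.15 (SE, 95% confidence interval -0.78 to -0.12), with an adjusted p of 0.0976 by limma. The pair ratios were -0.52 ± 0.22, -0.14 ± 0.22, -0.27 ± 0.35 and -1.04 ± 0.35 (SE) from A to D, with an adjusted p of 0.653 for their difference.

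Further probes of Zeb2 gave the same picture where they were bright. The probe at chr2:44995859-44995918 gave -0.57 ± 0.17 (SE, adjusted p = 0.0682 over all probes), and the probe at chr2:44991829-44991888 gave -0.32 ± 0.11 (adjusted p = 0.113). Across the 12 arrays their ratios correlated at 0.88 and 0.78 with the brightest probe, as 3 readings of 1 gene on shared RNA. A further probe, at chr2:45028303-45028362, was dim, being well above background on 6 KO and 4 WT arrays, and gave -0.0033 ± 0.043. Its sequence was designed on another cDNA record, so the probes may not read the same transcripts. Over all 35562 probes, 2.88% were called lower and 5.72% either way, and of the 15 member probes the call was that of Zeb1 alone.

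**Figure D2:**
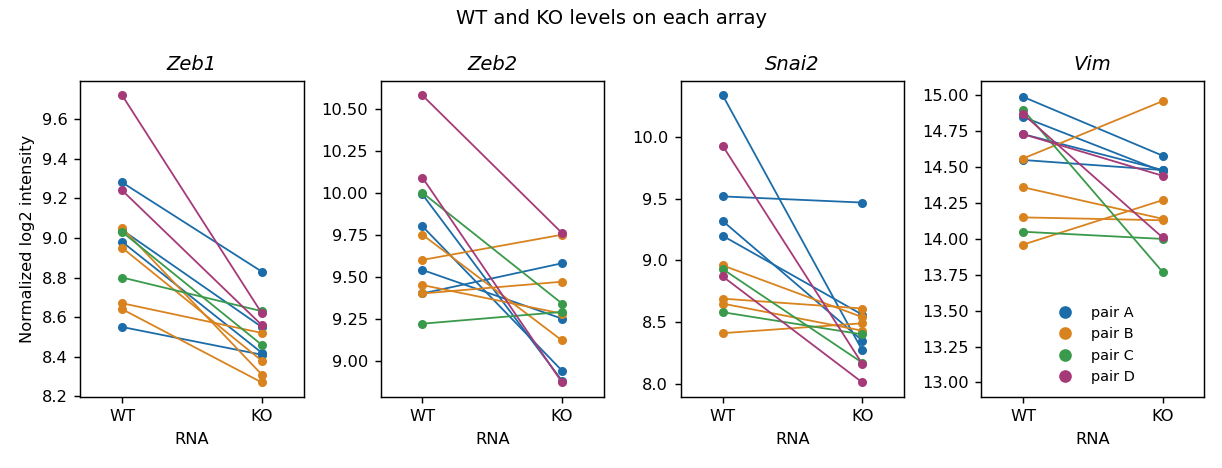
Normalized log2 intensity (vertical axis, a separate scale for each gene) of Zeb1, Zeb2, Snai2 and Vim in WT and KO RNA. Each line joins the WT and KO values of 1 of 12 arrays, coloured by pair. All 12 lines fall for Zeb1, against 8 for Zeb2, 11 for Snai2 and 10 for Vim.

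Among the Snai factors, Snai2 had the lowest fitted ratio of any member and did not pass the test. Snai2 (Slug) is a zinc finger repressor of neural crest and basal epithelial cells. It is read by a probe at chr16:14250104-14250163 (mm7). The KO level had a lowest value of 8.01, a median of 8.41 and a highest of 9.47, and the WT level 8.41, 8.95 and 10.34. On 6 of 12 arrays the KO value was below the lowest WT value, yet the highest KO value, on replicate 4, exceeded 9 of the 12 WT values.

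The Snai2 ratio was below 0 on 11 of 12 arrays, from -2.08 on replicate 1 to 0.079 on replicate 5. The fitted ratio was -0.67 ± 0.20 (SE, 95% confidence interval -1.12 to -0.23) with an adjusted p of 0.0691 by limma. It was lowest in pairs A and D, at -0.93 ± 0.25 and -1.61 ± 0.40, while pairs B and C gave -0.16 ± 0.25 and -0.17 ± 0.40 (SE). Without the dye adjustment the means of pairs C and D were -0.47 and -1.31, so the likeness of C to B depends on it. The test of that difference between pairs had an unadjusted p of 0.0543 and an adjusted p of 0.424. Snai2 was called when replicate 5 was left out (-0.74, adjusted p = 0.0431) and when the 12 arrays were taken as independent (-0.66, adjusted p = 0.0453).

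Snai1 (Snail), the founding member of this repressor family in mammals, did not change by the test. On its probe at chr2:167283227-167283286 (mm7) the KO level had a lowest value of 7.19, a median of 7.83 and a highest of 8.89, and the WT level 7.41, 8.00 and 8.72. Only 1 of 12 KO values was below the WT range. The fitted ratio was -0.14 ± 0.13 (SE, 95% confidence interval -0.42 to 0.15) with an adjusted p of 0.61, so a fall of up to 0.42 or a rise of up to 0.15 on the log2 scale is within the interval.

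The arrays of Snai1 divided by slide. On slide 3, the dimmer slide, its 4 ratios were -0.65 and -0.56 in pair C and -0.57 and -0.55 in pair D, while on slides 1 and 2 they ran from -0.52 to 0.73 with both signs. The dye-adjusted pair ratios were 0.15 ± 0.14, 0.084 ± 0.14, -0.37 ± 0.23 and -0.79 ± 0.23 (SE) from A to D, and the adjustment moved C and D apart from unadjusted means of -0.61 and -0.56. The unadjusted p for their difference was 0.0196 and the adjusted p 0.326. Of all genes tested for a difference between pairs, 12.1% had an unadjusted p under 0.05 and 0.326% were called, and of the 9 members none were called and 2 had an unadjusted p under 0.05, Snai1 and Esrp1.

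The Twist genes, which encode basic helix-loop-helix factors of mesoderm, were near the background of the arrays. Twist1, at chr12:31805579-31805638 (mm7), was well above background for KO RNA on 4 arrays and for WT RNA on 3, and on none of slide 3. Its level was at most 6.67 in KO and 6.44 in WT, and it was left out of the test. Without the filter on dim probes its ratio was 0.02 ± 0.07 (SE, adjusted p = 0.911 by limma).

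Twist2, at chr1:91755751-91755809 (mm7), passed the filter with 9 KO and 9 WT arrays well above background, which were all 8 arrays of slides 1 and 2 but only 1 of 4 on slide 3. Its level ran from 6.32 to 6.73 in KO RNA, with a median of 6.44, and from 6.25 to 6.93 in WT RNA, with a median of 6.47. The ranges overlapped wholly, with no KO value below the WT range. The fitted ratio was -0.033 ± 0.052 (SE, 95% confidence interval -0.14 to 0.079, adjusted p = 0.776). Intensities this close to background compress a ratio toward 0, so the narrow interval does not bound the change in transcript number.

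Vim was the brightest of the members and did not pass the test. On its probe at chr2:13521763-13521822 (mm7) the KO level had a lowest value of 13.77, a median of 14.36 and a highest of 14.96, and the WT level 13.96, 14.64 and 14.99. The ranges covered almost the same intensities, and 1 of 12 KO values was below the lowest WT value. The ratio was below 0 on 10 of 12 arrays, from -1.14 on replicate 9 to 0.40 on replicate 8. The fitted ratio was -0.26 ± 0.13 (SE, 95% confidence interval -0.55 to 0.025) with an adjusted p of 0.268 by limma. By pair it was -0.27 ± 0.18 in A, 0.12 ± 0.18 in B, and -0.58 ± 0.28 in both C and D (SE), with an adjusted p of 0.517 for the difference. A second Vim probe, at chr2:13516297-13516356, was on no array well above background and has no ratio here.

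Fn1 was the most variable member. Its main probe, whose sequence spans chr1:71832689-71834926 (mm7), is printed in 10 spots on each array, and the spots of an array differed by an SD of 0.032 to 0.18 in log2 ratio. Between arrays the SD was 0.76, larger than that of 93.7% of genes tested and larger than that between spots. Whether it came from the tumours or from labelling and hybridisation was not tested. The KO level had a lowest value of 9.82, a median of 10.72 and a highest of 11.96, and the WT level 9.93, 11.25 and 12.04. The ratio reached -1.50 on replicate 9 and 1.33 on replicate 8, and arrays of both signs occurred within pairs A, B and D. The fitted ratio was -0.23 ± 0.22 (SE, 95% confidence interval -0.72 to 0.26, adjusted p = 0.608 by limma). The other probes gave -0.097 ± 0.13 and -0.12 ± 0.093, and their ratios correlated with those of the main probe at 0.90 and 0.78 over the 12 arrays.

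The keepers of the epithelial state did not mirror the fall of Zeb1 by the test. Esrp1, which directs the epithelial form of many spliced messages, is written on the array under its older name Rbm35a. On its brighter probe, at chr4:11259829-11259888 (mm7), the KO level had a lowest value of 9.22, a median of 9.37 and a highest of 9.67, and the WT level 9.03, 9.36 and 9.45. The ratio had 6 arrays on either side of 0, and the fitted value was 0.067 ± 0.051 (SE, 95% confidence interval -0.042 to 0.18, adjusted p = 0.496 by limma). Pair D stood apart at 0.38 ± 0.085 (SE), with single arrays of 0.35 and 0.31, while the other pairs lay between -0.057 and 0.055. The difference between pairs had an unadjusted p of 0.0225 and an adjusted p of 0.339. A second probe, designed on another cDNA record, was well above background on 2 KO arrays and 1 WT array and was not tested.

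Ovol1, a zinc finger repressor of Zeb and other mesenchymal genes, was the member with the highest fitted ratio. On its brighter probe, at chr19:5444015-5444074 (mm7), the KO level had a lowest value of 7.43, a median of 8.25 and a highest of 8.66, and the WT level 7.53, 7.86 and 8.60. The ratio was above 0 on 9 of 12 arrays and ran from -0.44 on replicate 12 to 1.04 on replicate 1. The fitted value was 0.30 ± 0.14 (SE, 95% confidence interval -0.0047 to 0.60) with an adjusted p of 0.229. The second probe, at chr19:5445063-5445122, gave 0.076 ± 0.078, and its ratios correlated with those of the first at 0.55.

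**Figure D3:**
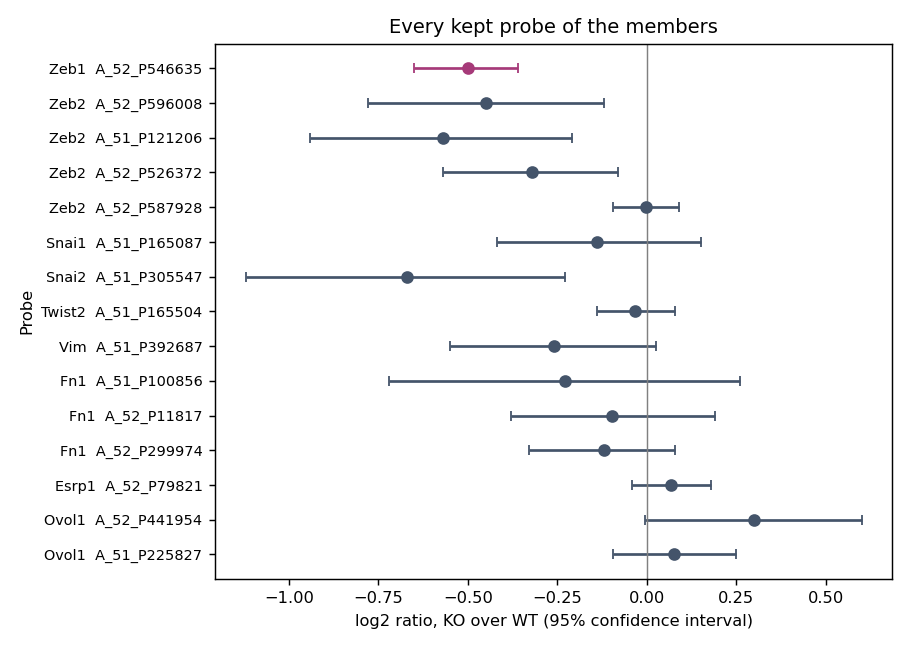
Fitted log2 ratio of KO over WT (horizontal axis) with its 95% confidence interval for each of the 15 tested probes of the members (vertical axis). The Zeb1 probe, coloured, is the only one with an adjusted p under 0.05, at -0.50, and the dim Zeb2 probe lies at -0.0033 beside 3 brighter ones between -0.57 and -0.32.

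Across the 12 arrays the members' ratios moved together only in part. This is a description over 12 arrays, which may share animals within pairs. The correlations largest in size were those of Twist2, a gene near background, with Esrp1 at -0.75 and with Vim at 0.71. The ratio of Vim correlated with those of Zeb2 and of Fn1, both at 0.66. The ratio of Esrp1 correlated with that of Zeb1 at -0.61. Zeb1 correlated with Zeb2 at 0.34, with Snai2 at 0.26 and with Vim at 0.22.

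Among 19164 genes measured on all arrays, those whose ratios were most like those of Zeb1 were Fgd5 at 0.936, Bhlhe22 at 0.911 and Tapbp at 0.906, with fitted ratios of -0.70, -0.43 and -0.46, each called lower. The gene most like Zeb2 was Tshz3, at 0.959 and with a fitted ratio of -0.62 (adjusted p = 0.0129 by limma). Next were Vps29 at 0.912 and Elovl5 at 0.911, with fitted ratios of 0.062 and 0.13, neither called. Those most like Snai2 were Gpr146 at 0.946, Map2 and Thbd, both at 0.919. Of these Thbd was called lower, at -1.17, while Gpr146 at -0.27 and Map2 at 0.29 were not called. The genes most like the others were Vtn for Vim at 0.929, Col6a1 for Fn1 at 0.907 and Abcc1 for Snai1 at 0.929. They were Slc6a20a for Twist2 at 0.906, LOC625251 for Esrp1 at 0.909 and Pcdhgb4 for Ovol1 at 0.888. Of these best matches, that of Vim was called lower and the rest were not called. The best match of so many genes is high by selection.

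Further EMT transcription factors changed in both directions. Of 13 measured, 2 fell and 3 rose, beside 3.94% and 3.52% of all genes, with a median of -0.040. Foxc1, a forkhead factor of mesenchyme and vessels, fell by 0.61 on the log2 scale (SE 0.090, adjusted p = 0.00318), and the E-box binding factor Tcf4 fell by 0.52 (SE 0.13, adjusted p = 0.0378). Etv1, an ETS family factor, rose by 0.58 (SE 0.12, adjusted p = 0.0177). Tcf12, which pairs with other helix-loop-helix proteins, rose by 0.45 (SE 0.099, adjusted p = 0.0211). Sox4, named after its values were seen, rose by 0.71 (adjusted p = 0.0462). With replicate 1, 3, 4, 6, 7, 9, 10 or 12 left out, or pair C or D, 1 of the 13 was called lower, and none of the 13 were called without pair A. Gsc was not bright enough to be tested.

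Of 18 genes for proteins that the EMT factors recruit or that control them, 4 rose and none fell by limma (adjusted p under 0.05). Over all genes, 3.52% were called higher and 3.94% lower. At an unadjusted p under 0.05, 5 of the 18 rose and 0 fell, beside 11.1% and 11.5% of all genes. The median of the 18 was 0.087. Kdm1a, the histone demethylase that Snail family proteins bring to their targets, rose by 0.37 (SE 0.056, adjusted p = 0.00341, 11 of 12 arrays above 0). The polycomb subunit Suz12 rose by 0.27 (SE 0.064, adjusted p = 0.030), and the deacetylase Hdac1 by 0.24 (SE 0.062, adjusted p = 0.0379). Id2, an inhibitor of helix-loop-helix factors such as Twist, rose by 0.99 (SE 0.26, adjusted p = 0.0439). With single arrays or pairs left out, between 0 and 4 of the 18 were called: 0 without pair A, 1 without replicate 3, 7, 9 or 12 or without pair C or D, and 2 without replicate 2, 6, 8 or 10 or without pair B.

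TGF-beta signalling, a main inducer of the EMT factors, held 3 falls and 1 rise among 20 genes, with a median of 0.015. Over all genes, 3.94% were called lower and 3.52% higher. At an unadjusted p under 0.05, 4 of the 20 were lower and 5 higher, beside 11.5% and 11.1% of all genes. The matricellular target Ccn2 fell by 0.76 (SE 0.14, adjusted p = 0.0104), the ligand Tgfb2 fell by 0.64 on 12 of 12 arrays (SE 0.15, adjusted p = 0.0276) and Tgfbi, a matrix protein induced by TGF-beta, fell by 0.94 (SE 0.26, adjusted p = 0.0467). The signal transducer Smad3 rose by 0.27 (SE 0.062, adjusted p = 0.0266). Without pair A none of the 20 were called, and 1 was called lower without replicate 1 or without pair B. None were called higher without replicate 3 or 9 or without pair B or C, 2 were without replicate 5, 11 or 12, and 4 were without pair D.

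Epithelial genes are the usual targets of repression by Zeb and Snai proteins. Of 33 measured, 2 rose and none fell by the limma fit, with a median of -0.043. Over all genes, 3.52% were called higher and 3.94% lower. At an unadjusted p under 0.05, 4 of the 33 were higher and 1 lower, beside 11.1% and 11.5% of all genes. The P-cadherin gene Cdh3 rose by 0.27 (SE 0.062, adjusted p = 0.0258), and the tight junction gene Cldn3 by 0.57 (SE 0.16, adjusted p = 0.0478). Marveld2, a protein of junctions between 3 cells, had a ratio of 0.21 (adjusted p = 0.0663). Cdh1 itself, the best known target of Zeb1, had a ratio of -0.17 ± 0.11 (SE, adjusted p = 0.423) and is named here after its value was seen. No epithelial gene was called without replicate 3 or without pair A or C, and 1 was called without replicate 1, 2, 4, 7, 8, 9, 10, 11 or 12 or without pair D.

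Of the mesenchymal genes, 6 of 35 fell and 2 rose, beside 3.94% and 3.52% of all genes, with a median of -0.23. S100a4, a calcium-binding protein of fibroblasts and macrophages, fell by 1.27 on 12 of 12 arrays (SE 0.20, adjusted p = 0.0049). The matricellular gene Postn fell by 0.81 (SE 0.18, adjusted p = 0.0217) and Lox, which cross-links collagen, fell by 0.55 (SE 0.13, adjusted p = 0.0253). The fibronectin receptor subunit Itga5 fell by 0.22 (SE 0.044, adjusted p = 0.0149) with 8 of 12 arrays below 0. Cdh11 and Fbn1 were the other falls, and the rises were in Cald1 (0.87, adjusted p = 0.0352) and Lum (1.13, adjusted p = 0.0435), which were named after their values were seen. Of the 35 genes, 7 are also among the fibroblast markers below and 2 among the pericyte and smooth muscle markers. With single arrays or pairs left out, between 1 and 8 of the 35 were called lower: 1 without pair A, and 3 without replicate 3 or without pair B or C. None were called higher without replicate 1, 3, 7 or 12 or without any 1 of the 4 pairs, and 1 was without replicate 2, 4, 6, 8, 9, 10 or 11.

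**Figure D4:**
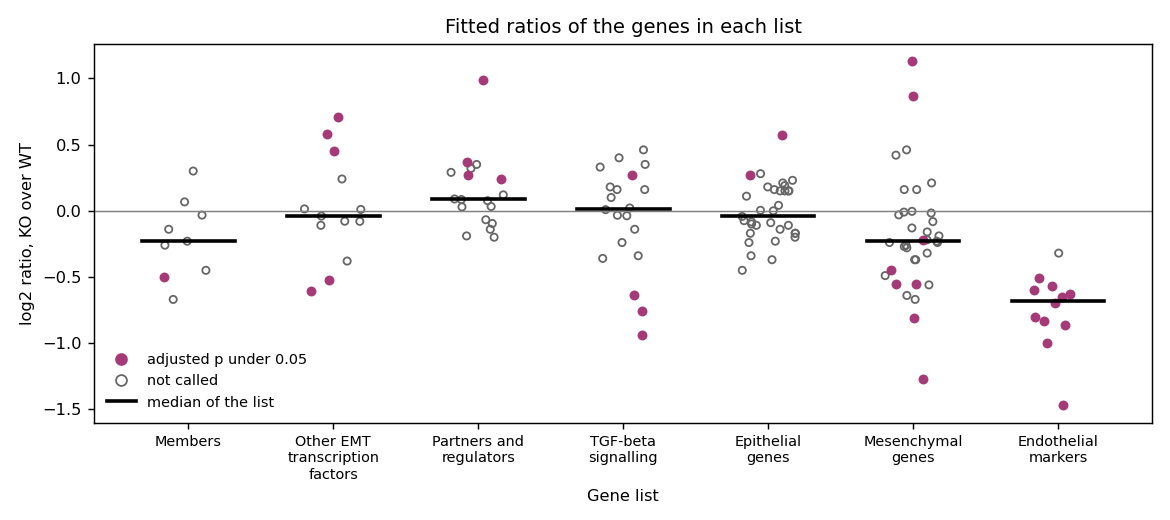
Fitted log2 ratio of KO over WT (vertical axis) of each tested gene in 7 lists (horizontal axis). Filled points are genes with an adjusted p under 0.05, open points are not called, sideways scatter has no meaning, and black bars are list medians. The endothelial markers lie lowest, with a median of -0.68, and the members have a median of -0.23.

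Endothelial markers, and some pericyte and smooth muscle markers, were lower in KO RNA along with Zeb1. Of 12 endothelial markers, 11 fell and none rose, 9 of them on all 12 arrays, and their median ratio was -0.68. Over all genes, 3.94% were called lower, 3.52% were called higher and 1.24% were below 0 on every array measured. The endothelial junction genes Cdh5 and Pecam1 fell by 0.83 and 0.65, and the endothelial transcription factor Erg by 1.00. The summed normalized intensity of the 12 markers ran from 18300 to 25600 in KO RNA and from 31400 to 53800 in WT RNA, with no overlap, and was lower in KO on 12 of 12 arrays. All 12 markers were well above background in both RNAs on all 12 arrays. By pair their median was -0.60 in A, -0.61 in B, -0.71 in C and -1.01 in D. By array it ran from -1.28 on replicate 11 to -0.48 on replicate 2. Zeb1 was also lowest on replicate 11, an array of the dimmer slide 3, but the other ends differed. On replicate 2 Zeb1 was at -0.49, and it was least negative on replicate 1, at -0.14, where the endothelial median was -0.50.

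Of the 9 pericyte and smooth muscle markers, 5 fell and none rose, beside 3.94% and 3.52% of all genes, with a median of -0.43. Their summed intensity was 22200 to 30500 in KO and 27500 to 47600 in WT. Of the 10 fibroblast markers, none fell and 1 (Lum) rose by the limma fit. At an unadjusted p under 0.05, 4 were lower and 1 higher, beside 11.5% and 11.1% of all genes. Fitted ratios were below 0 for 8 of the 10, beside 10405 of all 19719 genes tested. The median of the 10 was -0.38, and their summed intensities were 24100 to 92200 in KO and 27500 to 113000 in WT. Of 10 macrophage markers none were called (0 also at an unadjusted p under 0.05), and their median was -0.21. The part of these cell types in the ratios of Zeb1, Snai2, Zeb2 and Vim was not tested.

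**Figure D5:**
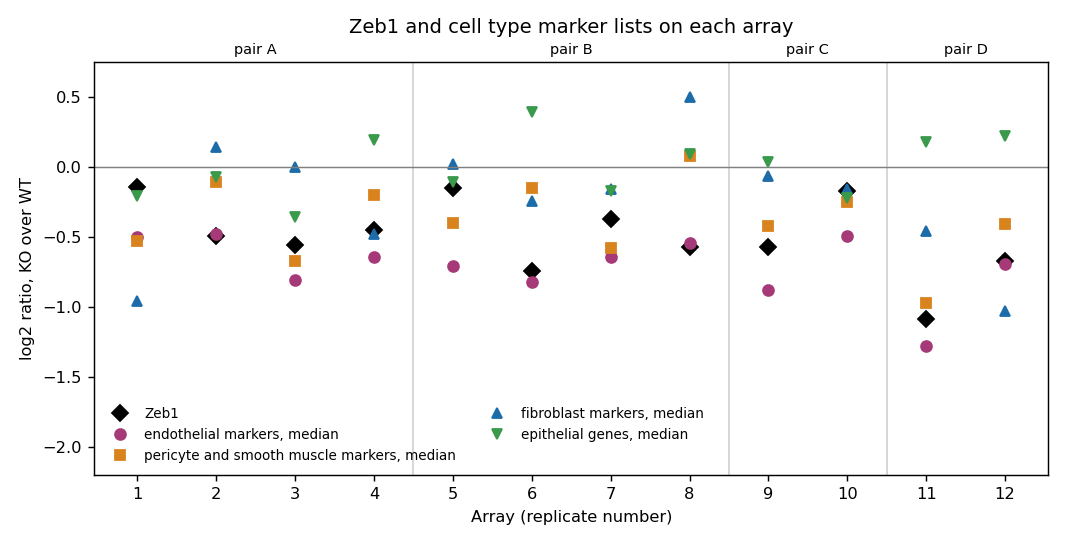
Log2 ratio of KO over WT (vertical axis) of Zeb1 and the median ratio of 4 gene lists on each of 12 arrays (horizontal axis, with the pairs above). Zeb1 and the endothelial median are below 0 on all arrays. Both are lowest on replicate 11, at -1.09 and -1.28, and they are least negative on different arrays. The epithelial median has 6 arrays on either side of 0.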

How the data were processed

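Scanner files held mean spot intensities, median local background intensities and spot flags (score, 0 or 1) from Agilent Feature Extraction 10.1.1.1, protocol GE2-v5_10_Apr08, per the file headers. They also held Agilent's processed intensities, background-subtracted and dye-normalized, per the file headers. The deposited series matrix held the authors' log2 ratios, for which the submitters' processing notes name limma. Its columns ran in the direction KO over WT with swapped arrays already turned (correlation 0.9856 to 0.9952 with the ratios computed here, slope 0.9981 to 1.057), with medians of -0.0111 to 0.00784, and how it was centred is not stated.

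Intensities were corrected with normexp (offset 50) and loess in limma 3.58.1 (R 4.3.3, statmod 1.5.0). An outlying local background took the median of its array and dye, a step known from earlier work on these data. Spots of a probe were averaged. A probe was kept if well above background for KO or WT on at least 6 of 12 arrays, and the brightest kept probe stood for its gene. Of 41174 probes, 22951 were named through a RefSeq accession, 6659 through a current symbol and 3109 through an older one (GRCm38.p6 table, names only). The file's own name stood for 2011 probes, and 6444 were unnamed. A probe named D130016B08Rik, which the table assigns to Zeb2, does not carry a member's name and was not used.

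The limma fit had a dye term and the pair as a random block estimated on ratios turned to KO over WT (correlation 0.078), so that a pair's own difference enters it, with Benjamini-Hochberg adjustment over all genes (threshold 0.05). The F test between pairs covered 19620 genes. The KO over WT fit was tested on simulated ratios, with the likeness within a pair set near the fitted 0.078. The share of false calls there lay somewhat above the nominal rate, so calls close to the threshold are the least certain. Normalization, the probe filter and the F test were not part of that simulation, and neither was a stronger likeness within pairs.

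The members, lists, tests and the rule for named genes were chosen with earlier results of these data known. The rule took every member, up to 4 genes of smallest p per list, the 3 genes most like each member, and Dnmt3a. For marker lists without a count above, of 8 T cell, 6 B cell, 5 mesothelial, 5 club cell and 6 ciliated cell markers 0 were called. In the alveolar type 1 list 2 of 6, and in the red cell list 1 of 4, were called lower, beside 3.94% of all genes. Arrays give no read depth, and their number limits the precision.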

Additional observations from a re-analysis of the deposited data

How the results depend on the processing

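Of 33 alternatives, Zeb1 kept its direction in all and its call in 29 (-0.63 to -0.35, adjusted p 0.001 to 0.221). The call was lost with pair means (-0.53). It was also lost within slide 1 (-0.41, adjusted p = 0.221), slide 2 (-0.46, 0.156) and slide 3 (-0.63, 0.175), where at most 1 of all genes was called. The count of members called lower was 1, and became 2 without a block, 2 with the block on unturned ratios (chosen after seeing the data; Snai2 -0.67, adjusted p = 0.0463), 0 with pair means and 0 within each slide. With single arrays left out it was 1 to 2. No member was called higher, and none differed between pairs, in any alternative run. Zeb2 and Ovol1 kept their direction, uncalled, throughout. Snai1 reversed to 0.03 without pair D, 0.15 within slide 1 and 0.084 within slide 2. Twist2 reversed to 0.0054 with local backgrounds as deposited and to 0.002 without replicate 12. With single arrays left out it ran from -0.05 to 0.002. It also reversed to 0.027 without pair D, 0.038 within slide 1 and 0.047 within slide 2. Within slide 2, Vim reversed to 0.12 and Fn1 to 0.14, and Esrp1 reversed to -0.029 within slide 1. The causes were not tested.

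Over all genes, 694 higher and 777 lower calls became 764 and 520 with local backgrounds as deposited. The 1471 calls became 378 with median centring, 49 with pair means, 336 at an adjusted p under 0.01 and 396 without pair A. Without pairs B, C and D they were 883, 831 and 973, and with single arrays left out 783 to 1800, with the fewest without replicates 3 (783), 12 (792), 7 (935) and 9 (974). They were 0, 1 and 0 within slides 1, 2 and 3. The list counts moved with them: with median centring, 1 mesenchymal gene was called lower and 0 epithelial genes higher, and with pair means the genes called higher went from 3 to 0 for further EMT factors, 4 to 0 for partners, 2 to 0 for epithelial, 2 to 1 for mesenchymal and 1 to 0 for TGF-beta genes, and those called lower from 2, 6 and 3 to 0 for further EMT factors, mesenchymal and TGF-beta genes. Dim probes (Twist1, Twist2) limit what a ratio can show.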
